A study of Mus musculus with 10 samples.

Results

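The immediate early transcription factor genes were followed in cells of mouse erythroleukemia (MEL), a virus-transformed red cell precursor line that grows in culture. The members are 10 genes, Junb, Jund, Jun, Fos, Fosb, Atf3, Egr1, Klf6, Ier2 and Ier3, taken as every probe set whose platform annotation gives that single symbol. They are read by 16 of the 45101 probe sets on the array. Gene expression was measured on 10 Affymetrix mouse arrays. Of these, 8 come from 4 subclones, FBB1.5, FBB1.7, FBB1.10 as well as FBB1.11, with 2 arrays each, which stably express BCL11A carrying a FLAG and biotin tag, and 2 come from the parental Mel-BirA line. All 5 lines carry BirA, the bacterial ligase that attaches biotin to the tag. BCL11A is a zinc finger repressor best known for silencing embryonic and fetal globin genes. Each subclone is a single clone, set against 1 parental line. The labels do not say whether paired arrays of 1 line stem from independent cultures, so p-values for single subclones cover only array-to-array spread, which may be technical, while those for all tagged arrays also take in the spread between subclones. The labels give no stimulus, so the values are levels in growing cells.

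Immediate early genes are switched on within minutes of a signal, without new protein synthesis, from promoters already occupied by serum response factor (SRF), its ETS partners and CREB family proteins. JUN and FOS family proteins pair through leucine zippers as AP-1, which binds the short sequences TGACTCA and TGAGTCA. In erythroid cells these factors are known as targets of cytokine and stress kinases, and JUNB is known to accumulate during erythroid differentiation while JUN is known to counteract it in MEL cells.

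The promoters of the 3 members that fell in a subclone, Junb, Jund and Ier3, are shown first because the results below turn on these genes. They run from 250 bases before to 50 after the gene start, 5′ to 3′ on the gene's strand, from RefSeq (GRCm38.p6), with the start where its table places it. The windows are chr8:84978699-84978998 on the minus strand for Junb, chr8:70697489-70697788 on the plus strand for Jund and chr17:35821463-35821762 on the plus strand for Ier3. Capitals mark matches to any of the motifs searched below.
Junb: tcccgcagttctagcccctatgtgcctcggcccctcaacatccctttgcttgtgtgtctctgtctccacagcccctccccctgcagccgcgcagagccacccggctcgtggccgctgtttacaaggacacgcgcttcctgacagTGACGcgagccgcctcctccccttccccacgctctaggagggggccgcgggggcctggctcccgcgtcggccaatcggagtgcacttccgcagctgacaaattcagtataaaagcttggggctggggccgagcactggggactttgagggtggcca
Jund: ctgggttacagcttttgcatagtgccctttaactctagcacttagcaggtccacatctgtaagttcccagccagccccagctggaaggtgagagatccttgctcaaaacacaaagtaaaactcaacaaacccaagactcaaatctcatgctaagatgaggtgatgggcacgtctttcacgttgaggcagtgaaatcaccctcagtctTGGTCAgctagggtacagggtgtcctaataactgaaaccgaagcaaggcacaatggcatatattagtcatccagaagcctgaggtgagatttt
Ier3: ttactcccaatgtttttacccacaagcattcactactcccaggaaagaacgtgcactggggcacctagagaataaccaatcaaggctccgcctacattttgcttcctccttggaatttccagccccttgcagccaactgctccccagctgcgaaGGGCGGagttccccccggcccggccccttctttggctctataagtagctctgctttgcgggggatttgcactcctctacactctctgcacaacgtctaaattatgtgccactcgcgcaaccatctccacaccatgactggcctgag
In capitals stand a TGACG in Junb, which starts 106 bases before the gene start, a TGACCA read on the opposite strand in Jund, which starts 43 bases before it, and a GGGCGG in Ier3, which starts 96 bases before it.

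Of the 10 members, 8 have a promoter in the RefSeq table, and these were searched on both strands beside 32851 promoters of the same length. The full cyclic AMP response element TGACGTCA was in 0 of the 8 and in 1.79% of all promoters. The AP-1 sequence TGACTCA or its reverse complement TGAGTCA was in 0 of 8, against 5.2% of all. The CArG box, which SRF binds, was in 0 of 8, against 1.63%. TGACG, which also lies inside the full element, was in 4 of 8 (Junb, Fos, Fosb and Atf3), against 20.8%. The GC box GGGCGG was in 6 of 8, against 35.7%. The GATA1 sequence AGATAA was in 1 of 8 (Jun), against 11.2%. TGACCA, a sequence that BCL11A is known to bind, was in 2 of 8 (Jund and Klf6), against 13.6%. These counts describe the letters of short windows only. The shown windows hold 65.3% G and C in Junb, 46.7% in Jund and 54.0% in Ier3, against a median of 52.7% over all promoters.

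Members fell into those with signal and those near the floor of the array. Tests were run on probe sets brighter than the whole table's median, an intensity of 30.5, on at least 2 arrays, which 11 of the 16 were. These are the single probe sets of Junb, Egr1, Ier2 and Ier3, both of Jund and all 5 of Klf6, so 6 of the 10 genes were tested. The remaining 5 probe sets, which read Jun (2), Fos, Fosb and Atf3, lay below the table median on all 10 arrays, between 2.69 and 30.4. Differences were fitted with limma on log2(intensity + 16), which understates the change of dim genes, and p-values were adjusted over all 25061 tested probe sets (Benjamini-Hochberg, threshold 0.05). Intensities of different probe sets cannot be compared with each other.

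Over the series, array medians lay between 29.6 and 31.6. The erythroid markers Gata1, Klf1, Epor, Tal1, Tfrc, Nfe2 and Alas2 exceeded the table median on all 10 arrays, while Slc4a1 and the single-gene probe set of Hba-a1 lay below it. The brightest alpha-globin probe set, shared by Hba-a1 and Hba-a2, had 1952 to 3932. Of 7 Bcl11a probe sets, 1 rose in FBB1.5, FBB1.10 and FBB1.11. In FBB1.7 that probe set had a mean of 63.7, against 37.8 in parental cells, without passing (log2 difference 0.57, limma's adjusted p = 0.071). Another fell in FBB1.7 (log2 difference -0.47, limma's adjusted p = 0.015). As a measure of RNA quality, the actin control gave a 3′ over 5′ ratio of 1.47 on array FBB1.5 1 and 1.80 on array parental 2, with 1.06 to 1.22 on the other 8 arrays. The 4 comparisons with the parental line share its 2 arrays.

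**Figure D1:**
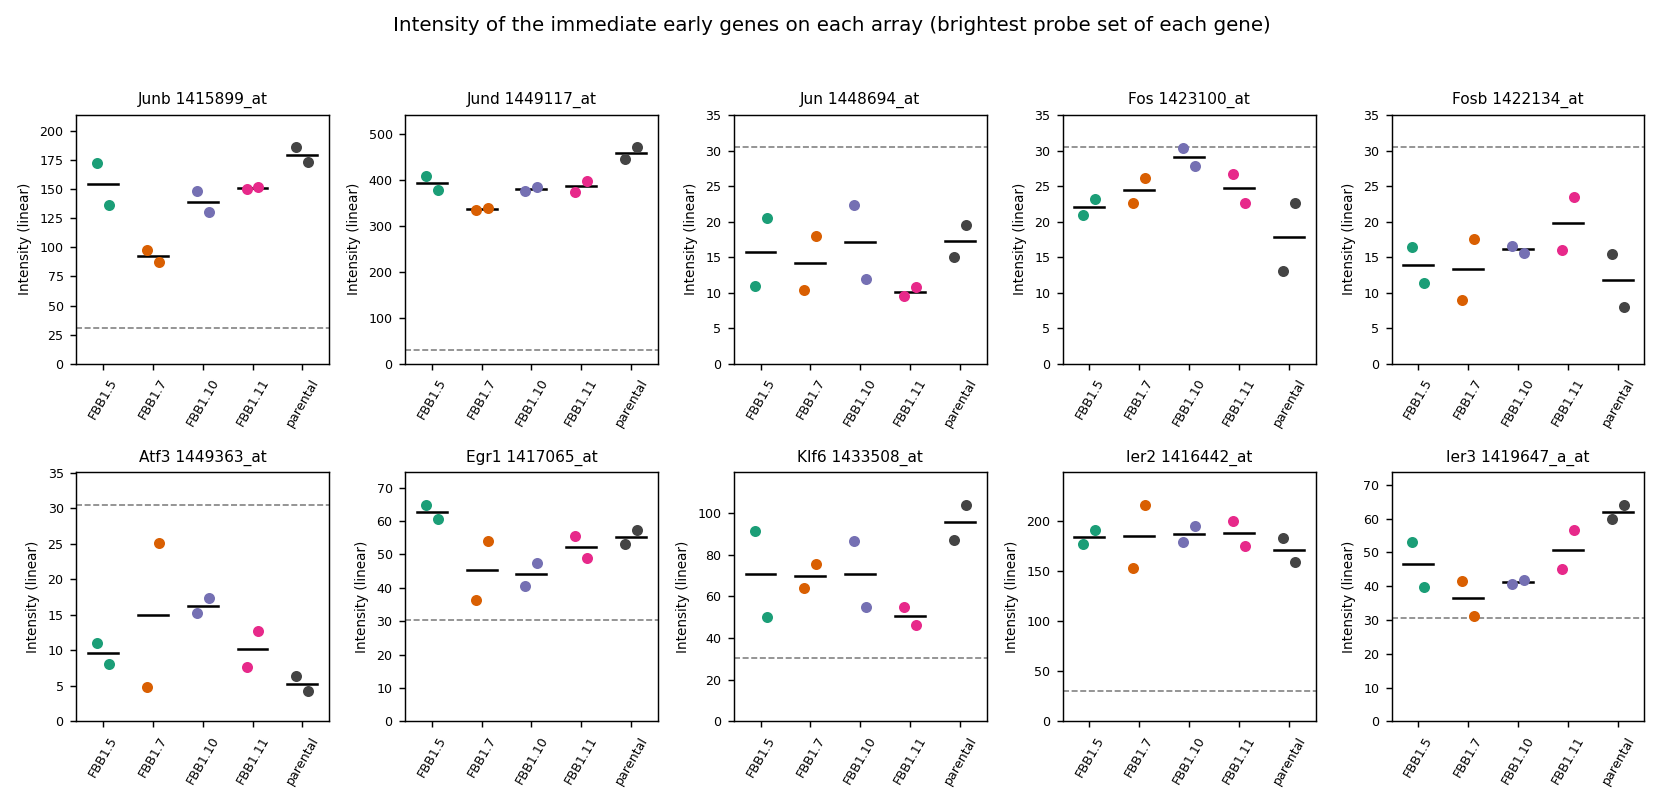
Intensity (linear scale, vertical axis) of the brightest probe set of each member on each array, by line (horizontal axis). Points are arrays, bars are means of 2 arrays and the dashed line is the table median of 30.5. Junb is lowest on the FBB1.7 arrays, at 97.7 and 87.2, and Jun, Fos, Fosb and Atf3 stay under the dashed line throughout.

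Junb, which encodes an AP-1 subunit of the JUN family, was the member that moved furthest, and it fell in FBB1.7. Its intensity was 172 and 136 for FBB1.5, 97.7 and 87.2 for FBB1.7, 148 and 130 for FBB1.10, 150 and 152 for FBB1.11, and 186 and 173 for the parental line. All 8 tagged arrays lay below both parental arrays, and the FBB1.7 arrays lay below all others. In FBB1.7 Junb had 92.4 ± 7.45, against 180 ± 9.19 in parental cells (SD, n = 2 each), a mean 48.6% lower. The log2 difference was -0.85 ± 0.13 (SE, limma's adjusted p = 0.0009). This call held whichever array was left out, with an adjusted p of at most 0.018. The log2 differences were -0.21 for FBB1.5, -0.34 for FBB1.10 and -0.22 for FBB1.11 (SE 0.13 each), with limma's adjusted p of 0.50, 0.22 and 0.53.

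Junb was also the only one of the 11 tested member probe sets with a difference among the 4 subclones (limma's F test, adjusted p = 0.014), a test that 7.24% of all tested probe sets passed. In order, its line means were 92.4 for FBB1.7, 139 for FBB1.10, 151 for FBB1.11, 154 for FBB1.5 and 180 for the parental line. No neighbours in this order passed. FBB1.10 stood 0.52 ± 0.13 above FBB1.7 on the log2 scale (limma's adjusted p = 0.13, with 0.124% of probe sets passing), FBB1.11 stood 0.11 above FBB1.10 (0.267% passing) and FBB1.11 stood -0.014 from FBB1.5 (1.32% passing). Over longer distances, FBB1.7 stood below FBB1.5 by -0.64 ± 0.13 (limma's adjusted p = 0.0059, with 9.44% of probe sets passing and 5.76% as lower), and FBB1.11 stood above FBB1.7 by 0.63 ± 0.13 (limma's adjusted p = 0.016, with 3.29% passing and 1.83% as higher). The F test call ended without FBB1.7 1 (adjusted p = 0.076) or FBB1.7 2 (adjusted p = 0.17). The call against FBB1.5 was lost when FBB1.7 2 (adjusted p = 0.062) or FBB1.5 1 (0.080) was left out, and that of FBB1.11 when any 1 of the FBB1.11 or FBB1.7 arrays was (0.081 to 0.14).

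Jund, whose product is the JUN family subunit usually present in resting cells, fell in FBB1.7 as well, on 1 of its 2 probe sets. The brighter probe set had 408 and 379 for FBB1.5, 334 and 339 for FBB1.7, 376 and 385 for FBB1.10, 374 and 399 for FBB1.11, and 446 and 472 for the parental line. The 8 tagged arrays did not overlap with the parental pair, and the FBB1.7 arrays were again the lowest. Its mean was 336 ± 3.59 in FBB1.7, against 459 ± 18.6 in parental cells (SD, n = 2 each), 26.6% lower (log2 difference -0.43 ± 0.096, SE, limma's adjusted p = 0.011). Its mean was 14.2% lower for FBB1.5, 17% for FBB1.10 and 15.8% for FBB1.11, without passing (adjusted p 0.20 to 0.35), and the subclones did not pass the F test (adjusted p = 0.43). Leaving out FBB1.7 1 (adjusted p = 0.089), FBB1.7 2 (0.068) or parental 2 (0.061) ended the FBB1.7 call. The dimmer Jund probe set disagreed. It had 56.9 and 49.1 in FBB1.7, against 59.4 and 48.4 in parental cells (log2 difference -0.017 ± 0.17), and stood above parental by 0.20 to 0.28 in the other 3 subclones, with limma's adjusted p of at least 0.49. Which part of the transcript each reads was not analysed here.

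Ier3 encodes a short-lived protein known to modulate cell survival and ERK signalling. Its intensity was 53.0 and 39.9 for FBB1.5, 41.6 and 31.2 for FBB1.7, 40.8 and 41.7 for FBB1.10, 45.1 and 56.5 for FBB1.11, and 59.9 and 64.1 for the parental line. Here too the parental arrays lay above all 8 tagged ones, and 1 of the FBB1.7 arrays was close to the table median. The mean was 36.4 ± 7.40 in FBB1.7, against 62.0 ± 2.93 in parental cells (SD, n = 2 each), 41.3% lower (log2 difference -0.58 ± 0.17, SE, limma's adjusted p = 0.041). The log2 differences of -0.33 for FBB1.5, -0.45 for FBB1.10 and -0.23 for FBB1.11 did not pass (adjusted p 0.21 to 0.64). The FBB1.7 call lies near the threshold, and it was lost when any 1 array of FBB1.7, FBB1.10, FBB1.11 or the parental line was left out (adjusted p 0.051 to 0.25).

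Counted together, 3 of the 11 tested member probe sets (27.3%) fell in FBB1.7 and 0 rose, where 10.1% of all tested probe sets passed, 5.5% as lower and 4.55% as higher. The count was 1, for Junb, when FBB1.7 1, FBB1.7 2 or parental 2 was left out. At an unadjusted p under 0.05 by limma, 3 of the 11 (27.3%) stood in FBB1.7, close to the 24.2% of all tested probe sets. The median log2 difference over the 11 was -0.23 in FBB1.7, against 0.0037 over all tested probe sets. No member probe set passed limma's test in FBB1.5, FBB1.10 or FBB1.11, where 2.02%, 1.8% and 0.188% of all tested probe sets did. At an unadjusted p under 0.05 there were 1, 3 and 2 of 11, where 14.8%, 15.4% and 11.8% of all tested probe sets were, and the median log2 difference over the 11 was -0.21, -0.21 and -0.20, against 0.020, 0.019 and 0.011 over all. With the 5 probe sets of Klf6 among the 11, these counts are not over independent genes.

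With all 8 tagged arrays set against the parental pair and the cell line as a random block, 0 of 11 member probe sets passed limma's test, as 0% of all tested probe sets did (0 of 25061, with 2190 at an unadjusted p under 0.05). Of the 11, 4 had an unadjusted p under 0.05, as 8.74% of all tested probe sets did. They were Junb (log2 difference -0.41 ± 0.19, SE, adjusted p = 0.57), the brighter Jund probe set (-0.29 ± 0.11, adjusted p = 0.47), Ier3 (-0.40 ± 0.16, adjusted p = 0.51) and the brightest Klf6 probe set (-0.47 ± 0.21, adjusted p = 0.55). For 3 of the 11 (Junb, the brighter Jund probe set and Ier3) all 8 tagged arrays lay below both parental arrays, which was so for 4.24% of all tested probe sets. The reverse, all 8 above both, held for 0 of 11, against 5.22% of all. In a fit of 5 line means, where the spread comes only from arrays of 1 line, Junb passed as lower over the mean of the subclones (adjusted p = 0.043), where 3.54% of all tested probe sets passed and 1.56% as lower.

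**Figure D2:**
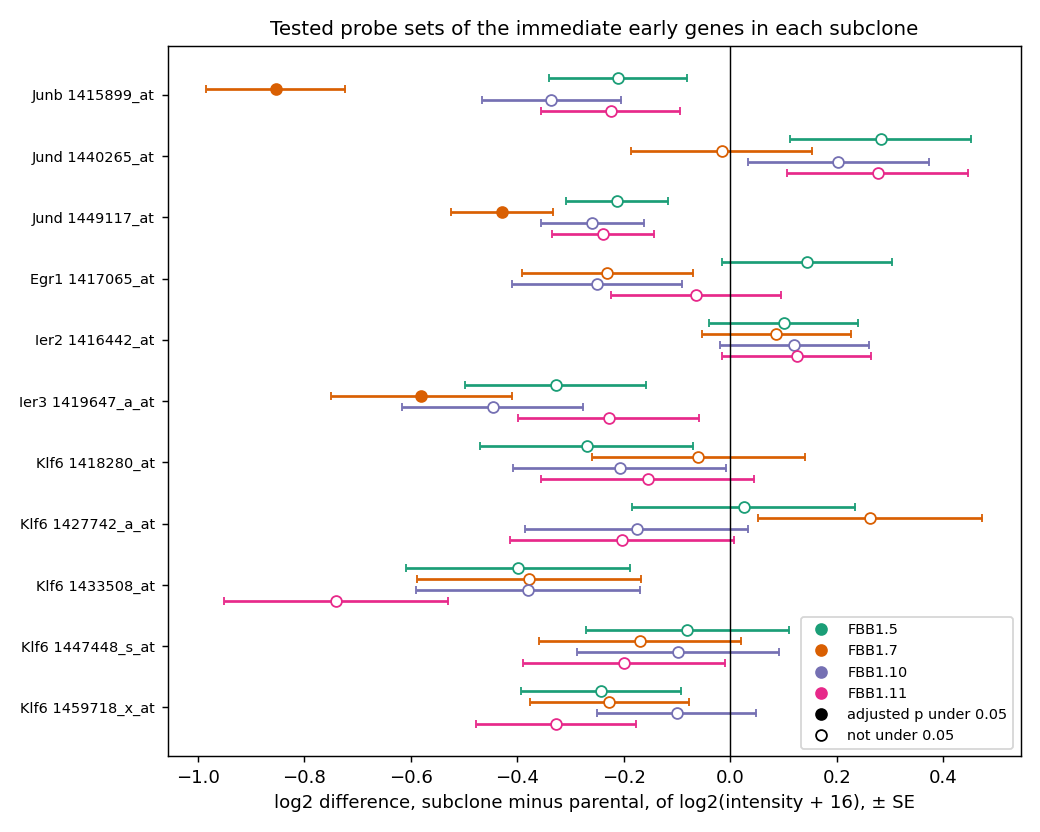
Log2 difference of each subclone from the parental line (horizontal axis, ± SE) for the 11 tested member probe sets (rows). Filled points passed at an adjusted p of 0.05. These are Junb, the brighter Jund probe set and Ier3, all in FBB1.7.

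Klf6, a zinc finger factor of the Krüppel-like family, is read by 5 probe sets, and none passed in any subclone or between subclones. The brightest had 91.6 and 50.1 for FBB1.5, 64 and 75.6 for FBB1.7, 86.8 and 55.1 for FBB1.10, 55.1 and 46.4 for FBB1.11, and 87.3 and 104 for the parental line. The arrays of a line lay far apart in FBB1.5 and FBB1.10, and FBB1.11 had the lowest mean. In FBB1.11 its mean was 50.7 ± 6.17, against 95.5 ± 11.6 in parental cells (SD, n = 2 each), with a log2 difference of -0.74 ± 0.21 (SE, limma's adjusted p = 0.18). The probe sets did not move alike. In FBB1.7 their log2 differences ran from -0.38 to 0.26, with limma's adjusted p of at least 0.31.

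Egr1, a zinc finger factor induced through SRF, had 64.9 and 60.6 for FBB1.5, 36.5 and 54.1 for FBB1.7, 40.6 and 47.5 for FBB1.10, 55.6 and 48.8 for FBB1.11, and 53.2 and 57.3 for the parental line. The FBB1.10 pair and 1 FBB1.7 array lay lowest, and the FBB1.5 pair lay above both parental arrays. Its log2 differences were 0.14 for FBB1.5, -0.23 for FBB1.7, -0.25 for FBB1.10 and -0.065 for FBB1.11 (SE 0.16 each, limma's adjusted p at least 0.42). The F test between subclones gave an adjusted p of 0.35.

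Ier2, a nuclear immediate early protein, had 177 and 191 for FBB1.5, 153 and 216 for FBB1.7, 179 and 195 for FBB1.10, 200 and 175 for FBB1.11, and 183 and 159 for the parental line. The lowest and the highest array were both FBB1.7, and every subclone overlapped with the parental pair. Its log2 differences lay between 0.087 and 0.12 in the 4 subclones (SE 0.14, limma's adjusted p at least 0.76). Ier2 lies on chromosome 8, as Junb and Jund do.

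Fos, Fosb, Jun and Atf3 gave no signal above the table median. Fos, the classical partner of JUN proteins, had 21.0 and 23.2 for FBB1.5, 22.6 and 26.2 for FBB1.7, 30.4 and 27.8 for FBB1.10, 26.7 and 22.7 for FBB1.11, and 13.1 and 22.6 for the parental line. Fosb ran from 9.02 to 23.5 on the tagged arrays and from 7.96 to 15.5 on the parental ones. Atf3, a stress-induced bZIP factor, ran from 4.89 to 25.1 on the tagged arrays, both ends of the range in FBB1.7, and from 4.34 to 6.34 on the parental ones. The brighter Jun probe set had 9.50 to 22.4 on tagged and 15.0 to 19.5 on parental arrays, and the dimmer one 2.69 to 7.71 on tagged and 3.12 to 6.87 on parental arrays. Such values are upper bounds with no order, so a difference in these 4 genes was not detectable at this signal.

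Across the 10 arrays, Pearson's r on log2(intensity + 16) was 0.88 between Junb and Jund, 0.84 between Junb and Ier3, and 0.89 between Jund and Ier3, each by its brightest probe set. These 3 genes were singled out as low in FBB1.7 and are highest on the parental arrays, so their r over the same arrays was largely fixed by that choice and is a description only. Arrays of a line share a clone, so the 10 points are not independent and no p is given. Over all 15 pairs of the 6 tested members r ran from -0.57 (Ier2 and Ier3) to 0.89, with a median of 0.33. Ier2 correlated below 0 with Junb (-0.25), Jund (-0.30) and Klf6 (-0.29).

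**Figure D3:**
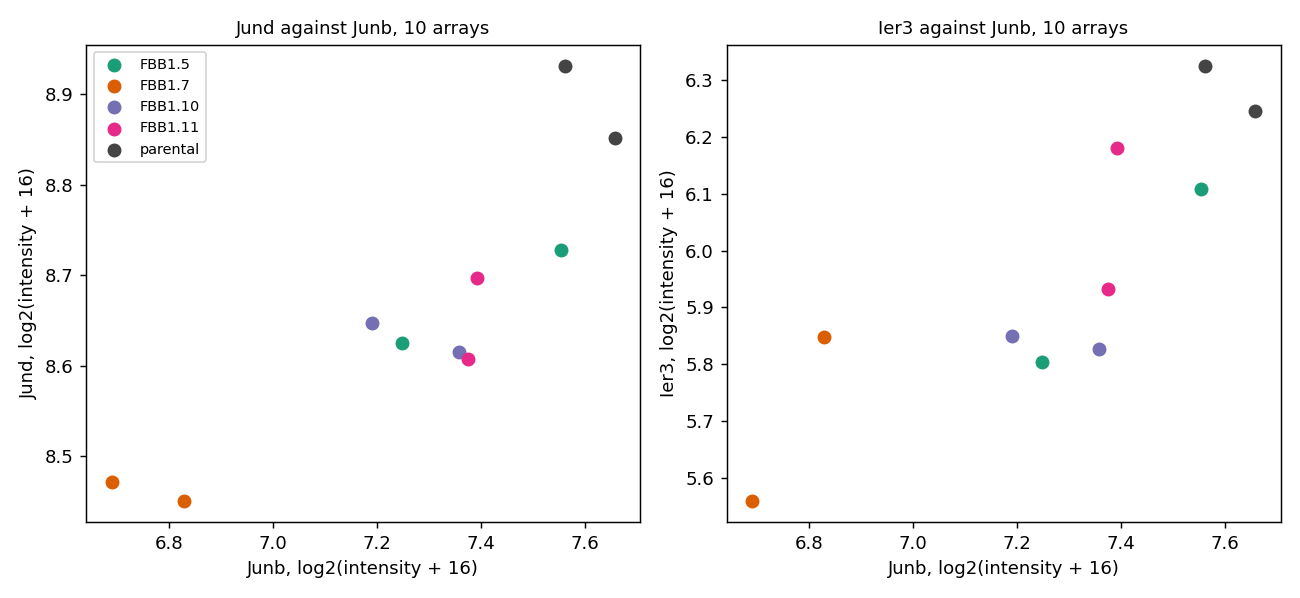
Jund (left) and Ier3 (right) against Junb on log2(intensity + 16), with a point for each of the 10 arrays coloured by line. The FBB1.7 arrays lie at the low end of Junb and the parental arrays at the high end, and r is 0.88 for Jund and 0.84 for Ier3, values largely fixed by choosing genes low in FBB1.7.

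Among genes that are not members, those most like Junb over the 10 arrays were Ankrd27 (r = 0.98), Zfp777 (0.98) and Adgre5 (0.98). Adgre5, which encodes the adhesion receptor CD97 and also lies on chromosome 8, had 86.1 ± 1.82 in FBB1.7, against 201 ± 10.9 in parental cells (SD, n = 2 each). For Egr1 they were Mrpl49 (r = 0.96), Ppp4r1l-ps (0.94) and Gngt2 (0.94). These are the highest of the tested probe sets with 1 symbol, so values near 1 are a product of the search.

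The chromosomes and neighbours of the genes that fell were read in FBB1.7 as well. On chromosome 8, which holds Junb, Jund and Ier2, 10.2% of 1092 other tested probe sets passed in FBB1.7, with a median log2 difference of -0.0036. On chromosome 17, which holds Ier3, 10.9% of 966 passed, with a median of -0.031. Of the 6 nearest tested protein-coding genes around each, 3 on either side, 1 passed for Junb, namely Prdx2, which rose by 0.42 (limma's adjusted p = 0.00079). Its other neighbours ran from -0.46 (Hook2, limma's adjusted p = 0.12) to 0.17 (Rnaseh2a, adjusted p = 0.43). None of the 6 around Jund or the 6 around Ier3 passed limma's test (smallest adjusted p 0.14 and 0.16).

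The regulators that act on immediate early promoters were examined as a list of SRF, its ETS and MRTF partners and the EGR corepressors Nab1 and Nab2. Of 8 genes, all tested, 3 fell in FBB1.7 and 0 rose, with a median log2 difference of -0.34, against 5.5% lower and a median of 0.0037 over all tested probe sets. None passed limma's test in the other 3 subclones. Srf itself had 379 and 310 for FBB1.5, 194 and 213 for FBB1.7, 288 and 284 for FBB1.10, 290 and 344 for FBB1.11, and 344 and 380 for the parental line. The FBB1.7 arrays lay below all others. Srf averaged 204 ± 13 in FBB1.7, against 362 ± 25.9 in parental cells (SD, n = 2 each), with a log2 difference of -0.78 ± 0.12 (SE, limma's adjusted p = 0.0010). This call held whichever array was left out (adjusted p at most 0.021), and Srf differed between subclones (F test, adjusted p = 0.0076), though not without FBB1.7 1 (adjusted p = 0.11).

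Elk4, an ETS partner of SRF, had 206 ± 29.0 in FBB1.7, against 283 ± 10.4 in parental cells (SD, n = 2 each, log2 difference -0.43, limma's adjusted p = 0.025). Mrtfb, an actin-regulated coactivator of SRF, had 98.9 ± 2.68 in FBB1.7, against 147 ± 5.41 in parental cells (log2 difference -0.50, limma's adjusted p = 0.018). Each of these 3 genes passed on its brightest probe set and not on its other tested one, which for Srf stood at -0.14, for Elk4 at 0.10 and for Mrtfb at -0.11. The Elk4 call was lost without FBB1.7 2 or parental 2 (adjusted p 0.11 to 0.23) and the Mrtfb call without parental 1 or either FBB1.7 array (adjusted p 0.062 to 0.12). Mrtfa had 78.8 ± 1.98 in FBB1.7, against 103 ± 9.35 in parental cells (limma's adjusted p = 0.12), and Elk1 had 54.0 ± 4.70 in FBB1.7, against 39.8 ± 15.5 in parental cells (adjusted p = 0.30). Nab2 had 33.6 ± 0.658 in FBB1.7, against 47.4 ± 2.57 in parental cells (limma's adjusted p = 0.21).

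**Figure D4:**
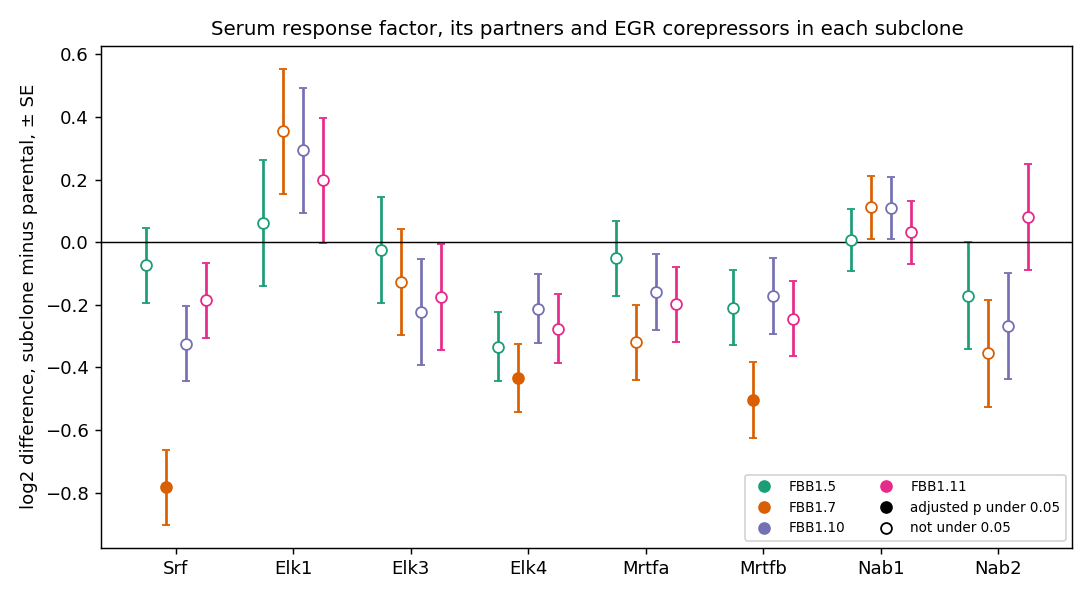
Log2 difference of each subclone from the parental line (vertical axis, ± SE) for Srf, its partners and the EGR corepressors, by the brightest probe set. Filled points passed at an adjusted p of 0.05, and these are Srf, Elk4 and Mrtfb in FBB1.7.

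Other AP-1 and bZIP partners were read as a list of 14 genes, of which 11 were tested. In FBB1.7, where 4.55% of all tested probe sets rose and 5.5% fell, 1 of the 11 rose and 0 fell. It was Atf7, a CREB-like factor, with 68.3 ± 5.31 in FBB1.7, against 41.1 ± 7.55 in parental cells (SD, n = 2 each, limma's adjusted p = 0.030). That call was lost without parental 2 or either FBB1.7 array (adjusted p 0.095 to 0.19), and the second Atf7 probe set stood at -0.15. None passed in the other subclones or between subclones. Fosl2, a FOS relative, had means of 71.6 to 92.4 in the subclones, against 71.5 in parental cells, and did not pass. Creb1, Mafg, Jdp2 and Atf2 did not pass either (limma's adjusted p at least 0.20 in every subclone).

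Of 34 further immediate early genes, 22 were tested. By the brightest probe set 1 rose in FBB1.5 (Myc) and 1 fell in FBB1.7 (Srf). Of all tested probe sets, 2.02% passed in FBB1.5, and 5.5% fell in FBB1.7. Between subclones 4 of 22 differed (Myc, Srf, Btg2 and Mcl1), a test that 7.24% of all tested probe sets passed. Myc, the growth regulator, had 651 and 643 for FBB1.5, 373 and 416 for FBB1.7, 487 and 542 for FBB1.10, 628 and 559 for FBB1.11, and 448 and 480 for the parental line. FBB1.5 and FBB1.11 were high and FBB1.7 low. Its log2 difference in FBB1.5 was 0.47 (limma's adjusted p = 0.027), a call lost without parental 1 or either FBB1.5 array (adjusted p 0.071 to 0.12), while the F test between subclones (adjusted p = 0.0024) held whichever array was left out. Btg2, an antiproliferative gene, had 85.5 ± 8.56 in FBB1.11, against 146 ± 3.46 in parental cells (SD, n = 2 each, limma's adjusted p = 0.053). It passed the F test (adjusted p = 0.011), though not without FBB1.11 1 (adjusted p = 0.096). Mcl1, a survival gene of the BCL2 family, differed between subclones on its brightest probe set (F test, adjusted p = 0.035), a call that ended without any 1 of the 8 tagged arrays (adjusted p 0.053 to 0.12). In FBB1.7, 4 of 6 Mcl1 probe sets fell, but not the brightest, with log2 differences from -0.69 to 0.14. Trib1, a pseudokinase gene, had 45.7 to 53.5 in the subclones, against 29.6 in parental cells, and Zfp36l1, an RNA-binding protein gene, 156 to 207, against 260 in parental cells, neither passing in any subclone. Of the 12 genes not tested, Dusp1, Egr2, Arc, Ccn1 and Sgk1 had parental means of 3.39 to 11.8, below the table median.

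In the kinase cascades that feed these genes, 7 of the 13 ERK cascade genes were tested and none passed against parental in any subclone. Nras differed between subclones (F test, adjusted p = 0.044), though not without any 1 of 7 tagged arrays (adjusted p 0.055 to 0.19). Araf, Rps6ka3 and Map2k1 did not pass (limma's adjusted p at least 0.13 in every subclone). Of 8 tested JNK and p38 genes 1 fell in FBB1.7, where 5.5% of all tested probe sets fell. It was Map3k5, the stress kinase ASK1, which fell on both of its probe sets. Its brighter one had 119 and 115 in FBB1.7, against 172 and 181 in parental cells (log2 difference -0.53 ± 0.11, SE, limma's adjusted p = 0.0075), and the other 3 subclones had 162 to 187. Map3k5 also differed between subclones (limma's F test, adjusted p = 0.01). Both calls ended without FBB1.7 1 or FBB1.7 2. Of all tested probe sets, 2.02% passed in FBB1.5 and 7.24% passed the F test. Mapk8, which encodes JNK1, rose in FBB1.5 (298 ± 13.3, against 215 ± 6.77 in parental cells, limma's adjusted p = 0.048), on 1 of 3 probe sets, a call that ended without any 1 of the 10 arrays (adjusted p 0.062 to 0.17). Map3k1, a JNK pathway kinase, differed between subclones (F test, adjusted p = 0.011) and was lowest in FBB1.11, at 281 ± 10.4, against 433 ± 17.8 in parental cells (limma's adjusted p = 0.15). Its F test call was lost without FBB1.7 1 or either FBB1.11 array (adjusted p 0.054 to 0.079).

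Stress response genes related to Atf3, not all of them upstream of it, were read as a list of 9 genes, of which 8 were tested. Atf4 rose in FBB1.5 (1995 ± 28.3, limma's adjusted p = 0.033) and FBB1.10 (1987 ± 186, adjusted p = 0.040), against 1481 ± 243 in parental cells (SD, n = 2 each). Of its 2 probe sets 1 passed in FBB1.5, both in FBB1.10, and 1, not the brighter, in FBB1.7 (log2 differences 0.27 to 0.30). Ddit3, the stress factor CHOP, fell in FBB1.5, with 1380 ± 112, against 1995 ± 253 in parental cells (limma's adjusted p = 0.020), on 1 of 2 probe sets, and differed between subclones (F test, adjusted p = 0.0010). The F test call of Ddit3 held whichever array was left out. Trib3, a target of both, rose in FBB1.10, with 793 ± 4.73, against 592 ± 52.6 in parental cells (limma's adjusted p = 0.045), also on 1 of 2. Cebpg fell in FBB1.7 (234 ± 9.72, against 304 ± 4.50 in parental cells, limma's adjusted p = 0.049) on 1 of 2 probe sets, and the other stood at 0.20. Calls of Atf4, Trib3 and Cebpg each ended without at least 5 of the 10 arrays (adjusted p 0.0504 to 0.305), and the Ddit3 call in FBB1.5 without FBB1.5 2 or parental 2 (adjusted p 0.12 to 0.19). Xbp1 and Chac1 did not pass against parental in any subclone. Xbp1 and Trib3 did differ between subclones (limma's F test, adjusted p = 0.046 and 0.042). Each of these F test calls was lost when any 1 of the 8 tagged arrays was left out.

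Single genes known as markers of other cells moved as well, in FBB1.7 and in other subclones. All lines are cultured MEL cells and each subclone is a single clone, so these genes are not read as admixed cells. In bulk RNA, fewer MEL cells expressing a gene and less of its RNA per cell cannot be told apart. Of 3 tested mast cell genes 2 fell in FBB1.7, the protease genes Mcpt2 and Cpa3, where 5.5% of all tested probe sets fell. The summed intensity of the 5 mast cell markers was 729 to 831 in FBB1.7, 1946 to 2459 in FBB1.10 and 1592 to 1649 in FBB1.11, against 5083 to 6147 in parental cells. Nearly all of that sum is Mcpt2, at 673 ± 60.8 in FBB1.7, against 5453 ± 736 in parental cells (SD, n = 2 each). Mcpt2 fell in FBB1.10 and FBB1.11 too, and Cpa3 in FBB1.10. Of all tested probe sets, 1.8% passed in FBB1.10 and 0.188% in FBB1.11. Kit did not pass in any subclone, and Fcer1a and Ms4a2 lay below the table median on all 10 arrays.

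Of 3 tested stromal genes Pdgfrb fell in FBB1.7, with 38.7 ± 2.91, against 97.1 ± 8.39 in parental cells, while Col1a2 and Col3a1 stood at log2 differences of 0.085 and 0.23 without passing. The stromal list sum was 220 to 224 in FBB1.7, against 259 to 271 in parental cells. Of 4 megakaryocyte genes Pf4 rose in FBB1.7, with 233 ± 11.6, against 168 ± 0.0778 in parental cells, and Itga2b (-0.20), Gp9 (-0.020) and Gp1bb (0.17) did not pass. That list sum was 548 to 557 in FBB1.7, against 493 to 500 in parental cells. Of 7 tested erythroid genes Tal1 and Tfrc fell, with a list sum of 6769 to 6922 in FBB1.7, against 7227 to 7930 in parental cells. No macrophage, T or B cell marker passed in FBB1.7. Over all tested probe sets in FBB1.7, 5.5% fell and 4.55% rose. The actin ratio was 1.07 and 1.06 in FBB1.7, against 1.22 and 1.80 in parental cells. The part of the cell markers in the fall of Junb, Jund and Ier3 was not tested. Without parental 2 and FBB1.5 1, the arrays with the highest actin ratios, Junb stood at -0.90 in FBB1.7 (limma's adjusted p = 0.0011) and 2 of 11 member probe sets passed.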

How the data were processed

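The deposited values are probe set intensities on a linear scale. Per the labels' protocols, cDNA primed with oligo-dT was transcribed into biotin-labelled cRNA and stained with a streptavidin dye conjugate. Summarisation, background correction and scaling are not given in the sources used here. Of 45101 probe sets, 64 controls were left out. Array medians differed by at most 0.0623 on log2(intensity + 16), so no further normalization was applied. Symbols come from the platform annotation (34945 probe sets with 1, 932 with several and 9160 with none), and 34741 of the first matched RefSeq genes by identifier.

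Tests used limma 3.58.1 and statmod 1.5.0 in R 4.3.3, with an intensity trend. The 8 tagged arrays were compared with the parental pair with line as a random block (consensus correlation 0.211). Single subclones were compared in a fit of 5 line means (residual degrees of freedom 5, prior 9.92). Figures were drawn with Python 3.11.15 and matplotlib 3.10.9. The fits were also run on simulated data with planted differences. Those data held no other spread between lines, so they do not check how the fits deal with such spread. Pathway lists were described by the brightest tested probe set of each gene, naming up to 3 genes with the smallest p in the F test and up to 3 in tagged against parental. Genes that passed elsewhere were named after their values were seen, as were Prdx2, Mrtfa, Elk1, Pdgfrb, Pf4, Tal1, Tfrc, Cpa3, Mcpt2, Kit, Col1a2, Col3a1, Itga2b, Gp9, Gp1bb and the dim genes. Fos was not tested, so no genes like it are named. The members and lists were chosen with earlier results of these data known. Alternatives varied the pseudocount (1 or 64), normalization, filter, variance model, replicate block and treatment of the line, and left out arrays and subclones. The number of arrays, 2 per line, limits the precision.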

Additional observations from a re-analysis of the deposited data

Results flagged for a closer look

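Junb differed between the 4 subclones, which carry the same construct. It was 1 of 11 member probe sets to do so, and 7.24% of all tested probe sets did. Its subclone means spanned 0.643 on the log2 scale, with FBB1.7 lowest and FBB1.5 highest (moderated F test, adjusted p = 0.014). None of the 11 tested member probe sets had an array far from the others among the 8 tagged arrays by Dixon's criterion. That criterion looks for a single outlying array, and each subclone has a pair, so it could hardly flag a deviating subclone.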

How the results depend on the processing

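Of 1374 recomputed differences of single member probe sets, 1328 kept both their direction and their side of the threshold, 18 lost a call, 1 gained one, and 27, none called, changed sign. Most of the 1374 were not called to begin with, so this total says little about how stable the calls are. Calls were lost in 12 of 20 alternatives for Ier3 in FBB1.7, 3 of 20 for Jund in FBB1.7 and 3 of 20 for Junb in the F test. No called value changed sign. For the F test the value is the span of the subclone means, which cannot be negative, so its direction could not change. With the fit of 5 line means in place of the line as a block, 1 member probe set, Junb, passed in tagged against parental (0 otherwise). Leaving out 1 array gave 1 to 3 member probe sets in FBB1.7, 0 to 1 in the F test, and 0 in the 3 other subclones and in tagged against parental. For Junb it gave log2 differences of -0.80 to -0.49 for FBB1.7 against FBB1.5 and 0.56 to 0.70 for FBB1.11 against FBB1.7. Without an intensity trend 0 members passed the F test, and FBB1.11 against FBB1.7, at 0.63, lost its call (adjusted p = 0.080). Without the 2 arrays of highest actin ratio, an alternative chosen after seeing the data, FBB1.7 against FBB1.5 stood at -0.49 (adjusted p = 0.052). Ier3 in FBB1.7 also lost its call with no intensity filter (adjusted p = 0.11) and with no intensity trend (adjusted p = 0.056). Junb in FBB1.7 passed under all 20 alternatives (log2 difference -0.95 to -0.64). With the replicate number as a block, 2 member probe sets passed in FBB1.7 and 1 in the F test, and Ier3 did not (adjusted p = 0.051). Over 10 pairs of lines, deviations of same-numbered arrays correlated at -0.16 to 0.18, so the numbers were not taken to pair arrays. Over all probe sets the count in FBB1.7 ran from 871 to 2645 (2519 as reported), in FBB1.5 from 22 to 808 (507), in FBB1.10 from 1 to 1191 (450), in FBB1.11 from 8 to 434 (47), in the F test from 483 to 2412 (1814) and in tagged against parental from 0 to 887 (0). Of 22 calls of pathway list genes, 3 held whichever array was left out. For Jun, Fos, Fosb and Atf3 signal near the floor limits what can be seen.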
